A study of Danio rerio with 6 samples.

Results

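The glutaminase genes *gls2a*, *gls2b*, *gls3* and *glsb*, the glutamate decarboxylase genes *gad1b* and *gad2*, and the dehydrogenase gene *aldh4a1* were examined in whole zebrafish larvae. They were chosen by name, with earlier results of these data known, and all 7 of them were found among the 31388 genes counted. Exonic reads were counted in 3 pools of *fdx1b* mutant larvae (*fdx1b*-/-) and 3 pools of their siblings, in the AB wild-type strain background. Each pool held 20 whole larvae at 5 days post-fertilization, collected at Zeitgeber time 3, and no drug is named in the labels. The counts of all pools are labelled CTR, which the study uses elsewhere for controls given vehicle in its drug treatments. Whether these larvae received vehicle is not given in the sources used here. *fdx1b* encodes a mitochondrial ferredoxin that passes electrons to the enzymes making cortisol, and the comparison asks how transcripts differ in larvae with disrupted steroidogenesis. The mutants were sorted by a visible trait, poor adaptation of their pigment to the background, and the study calls the unaffected larvae wild-type siblings. How their genotype was established is not given in the sources used here.

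Glutaminases remove the amide group of glutamine in mitochondria and release glutamate and ammonia. Mammals have a liver-type enzyme, GLS2, among others, and fish carry extra copies of such genes from a genome duplication in their ancestry. Glutamate dehydrogenase and aminotransferases turn glutamate into 2-oxoglutarate for the citric acid cycle. Glutamate decarboxylases turn it into the inhibitory transmitter GABA, and glutamine synthetase returns it to glutamine. The product of *aldh4a1* works in the other direction, forming glutamate as the last step of proline breakdown.

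Related transcripts of a gene family can be confused, so the primers with which the study told their transcripts apart are shown here, each 5′ to 3′, with no base marked. The genes' identifiers were ENSDARG00000069095 for *gls2a*, ENSDARG00000002917 for *gls2b*, ENSDARG00000062781 for *gls3* and ENSDARG00000040705 for *glsb*. The primers named "probe" made the templates of the in situ hybridization probes, and those named "RT-PCR" served quantitative RT-PCR. The study lists the first RT-PCR pair under the name *gls2*, and it was taken here as that of *gls2a*.
gls2a probe, forward: tctttccggattggttatgc
gls2a probe, reverse: tccctccttgctgagtctgt
gls2b probe, forward: gaccctgcgactacccaata
gls2b probe, reverse: tgtatttcgcaacctgtcca
gls3 probe, forward: ggcgatttgtcattcctgat
gls3 probe, reverse: tccttgttgcacagtcttcg
glsb probe, forward: cggatctggtgtccttgttt
glsb probe, reverse: ctgtctttgggtgcaggatt
gls2a RT-PCR, forward: gacatgacagcagctcttgact
gls2a RT-PCR, reverse: tgcctgactcacatgtcacc
gls2b RT-PCR, forward: tgtcatcagttcacttatcaagca
gls2b RT-PCR, reverse: cgtactcactgcctgtcatctt

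The 6 libraries held between 18247332 and 49908095 counts. Sibling pool 2 was the shallowest and stood apart from the rest. Its Pearson correlation with the other sibling pools in log2 CPM (counts scaled to library size) was 0.987 and 0.985, against 0.992 to 0.994 for the other pairs within a group. The transcript of *fdx1b* itself was scarce, at 30, 10 and 27 counts in sibling pools 1, 2 and 3 and 29, 27 and 42 counts in mutant pools 1, 2 and 3. The groups overlapped in CPM (log2 fold change 0.38, SE 0.25, adjusted *p* = 0.4211, edgeR). The kind of lesion is not given in the sources used here, so these counts do not check the genotype labels. To be called different, a gene needed an adjusted *p* no higher than 0.01 together with a log2 fold change of 0.25 or more in either direction. The test was the quasi-likelihood test of edgeR with Benjamini-Hochberg correction across the 26544 genes tested. All 7 genes passed the filter on low counts, and no other locus had counts within 1% of theirs in the 6 libraries.

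*gls2a*, a copy of the liver-type glutaminase, was the only member of the 7 that passed the threshold. It was at 42.4, 35.1 and 38.7 CPM in sibling pools 1, 2 and 3 and at 24.4, 24.4 and 25.1 CPM in mutant pools 1, 2 and 3. The groups were clearly apart, and the mutant pools were nearly identical to each other whereas the sibling pools were spread. Siblings averaged 38.7 ± 3.65 CPM and mutants 24.6 ± 0.421 CPM (SD, n = 3), so that *gls2a* fell by 36.8% (log2 fold change -0.66, SE 0.07, 95% interval -0.82 to -0.51, adjusted *p* = 0.0004606, edgeR's quasi-likelihood test). Over all genes tested, 0.497% were called lower and 0.618% were called higher, and 2.06% had a log2 fold change at or below that of *gls2a*. *gls2a* stayed called in all 15 alternative fits, with log2 fold changes between -0.72 and -0.59 and adjusted *p*-values between 7.88e-12 and 0.00606. Without sibling pool 2 its log2 fold change was -0.72 (adjusted *p* = 8.67e-06, edgeR), and the same fit gave -0.47 for *gls2b*, -0.20 for *gad1b*, -0.22 for *gad2* and 0.21 for *aldh4a1*, with no call among these. Its spread among siblings (coefficient of variation 9.41%) was larger than counting alone gives in any library (2.17% to 3.96%), whereas that of the mutants (1.71%) was below it (3.02% to 3.34%).

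Its paralog *gls2b* also had lower values in the mutants but missed the threshold. It was at 11.5, 10.4 and 8.24 CPM in sibling pools 1, 2 and 3 and at 7.59, 7.22 and 6.65 CPM in mutant pools 1, 2 and 3. No mutant pool reached the lowest sibling pool, but sibling pool 3 was closer to the mutants than to sibling pool 1. The means were 10.05 ± 1.66 and 7.15 ± 0.474 CPM (SD, n = 3), and the log2 fold change was -0.49 (SE 0.12, 95% interval -0.76 to -0.22, adjusted *p* = 0.05046, edgeR). Such separation of the groups was not rare, since 13% of all genes tested had the 3 mutant pools below the 3 sibling pools. The call of *gls2b* depended on the tool and on sibling pool 3. It passed with the Wald test of DESeq2 (log2 fold change -0.49, adjusted *p* = 0.00989, where 2.18% of genes were called lower) and in edgeR without that pool (-0.62, adjusted *p* = 0.00592). Leaving out any other pool gave adjusted *p*-values between 0.049 and 0.209. The study, which used DESeq2, reported *gls2b* as significantly different in these data. Its quantitative RT-PCR also found *gls2a* and *gls2b* lower in mutants, with a rise after dexamethasone, a synthetic glucocorticoid.

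*glsb*, a further glutaminase gene, was at 59.4, 61.1 and 61.5 CPM in sibling pools 1, 2 and 3 and at 56.2, 55.3 and 56.1 CPM in mutant pools 1, 2 and 3. The groups did not overlap, but the distance between them was small (log2 fold change -0.12, SE 0.05, 95% interval -0.22 to -0.01, adjusted *p* = 0.1992, edgeR). *gls3*, a predicted glutaminase-like gene, was the scarcest of the 7, at 3.39, 3.14 and 3.5 CPM in sibling pools 1, 2 and 3 and 3.43, 3.9 and 4.05 CPM in mutant pools 1, 2 and 3. These ranges overlapped, and the log2 fold change was 0.17 (SE 0.12, 95% interval -0.09 to 0.44, adjusted *p* = 0.4624, edgeR). A fall of the size of that of *gls2a* lay outside the interval, at 57 to 177 counts per library.

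**Figure D1:**
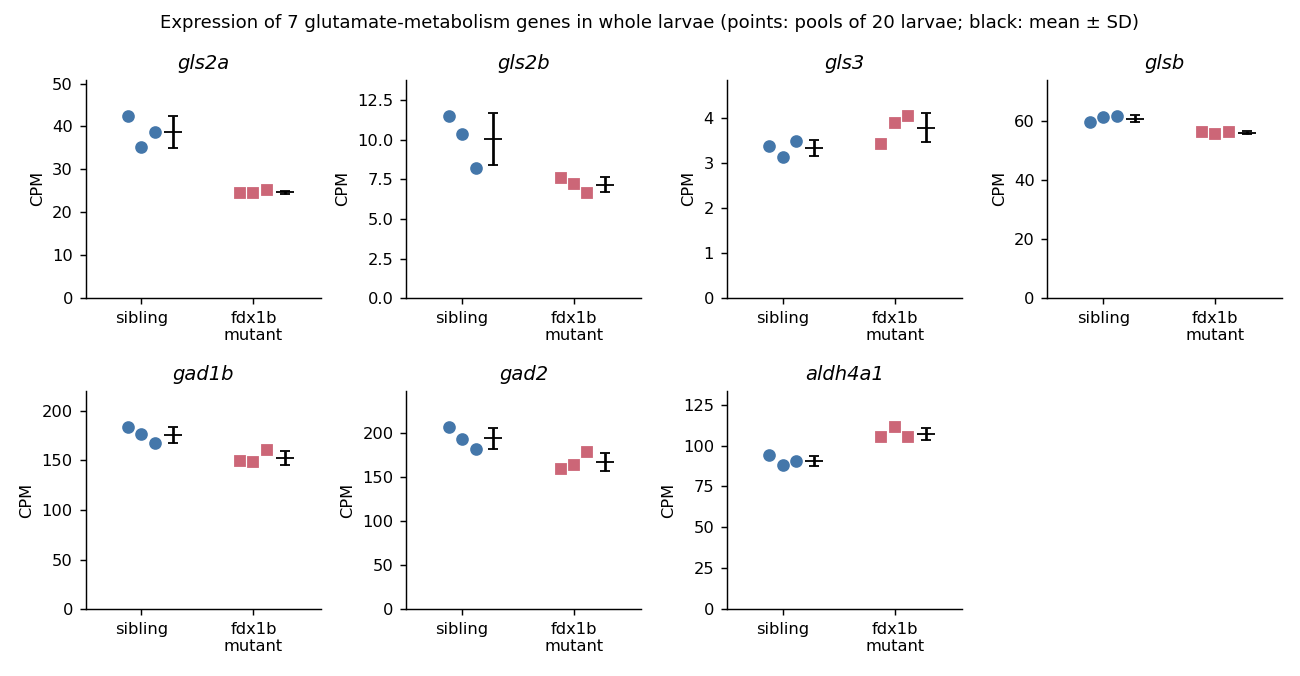
Each panel plots the level of a gene in CPM, on an axis from 0, in 3 sibling pools (blue circles) and 3 *fdx1b*-/- pools (red squares), with the mean and SD of each group in black. *gls2a* sits between 35.1 and 42.4 CPM in siblings and between 24.4 and 25.1 CPM in mutants, while the ranges of *gls3* overlap.

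Levels of different genes were then compared per exon length, as RPKM, the CPM divided by the exon length in kilobases. In siblings the order of the mean levels was *gad1b* (48.9 ± 2.17 RPKM), *aldh4a1* (46.7 ± 1.56), *gad2* (29.7 ± 1.88), *gls2a* (21.1 ± 1.98), *glsb* (12.8 ± 0.239), *gls2b* (4.51 ± 0.744) and *gls3* (0.883 ± 0.0489). Only *gad1b* and *aldh4a1* overlapped among neighbours in that order. In mutants *aldh4a1* came first at 55.0 ± 1.56 RPKM, ahead of *gad1b* at 42.4 ± 1.83 RPKM with no overlap. The rest kept their places, with *gls2a* at 13.4 ± 0.229 RPKM just above *glsb* at 11.8 ± 0.0993 RPKM (SD, n = 3 for each).

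The 4 glutaminase genes examined, a sum that does not stand for all glutaminase transcripts of the larva, together reached 41.6, 37.5 and 38.6 RPKM in sibling pools 1, 2 and 3 and 29.4, 29.2 and 29.5 RPKM in mutant pools 1, 2 and 3. The liver-type copies *gls2a* and *gls2b* made up 65.1 ± 2.36% of that sum in siblings and 56.5 ± 0.167% in mutants (SD, n = 3), a difference of -8.58 percentage points (SE 1.37). The groups did not overlap, and the exact two-sided permutation test gave *p* = 0.1, the smallest value that 3 pools against 3 allow. Both liver-type copies stand in a gene list of the study selected on *p*-value in these same samples, and *gls3* and *glsb* do not. The test therefore adds no support to their lower levels. Nearly all of the difference came from *gls2a*, whose own share was 53.6 ± 2.36% in siblings and 45.5 ± 0.59% in mutants, while that of *gls2b* was 11.5 ± 1.65% and 10.9 ± 0.752% with overlapping pools. The share of *glsb* was 32.7 ± 2.29% and 40.1 ± 0.147%, and that of *gls3* was 2.25 ± 0.127% and 3.41 ± 0.29%.

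**Figure D2:**
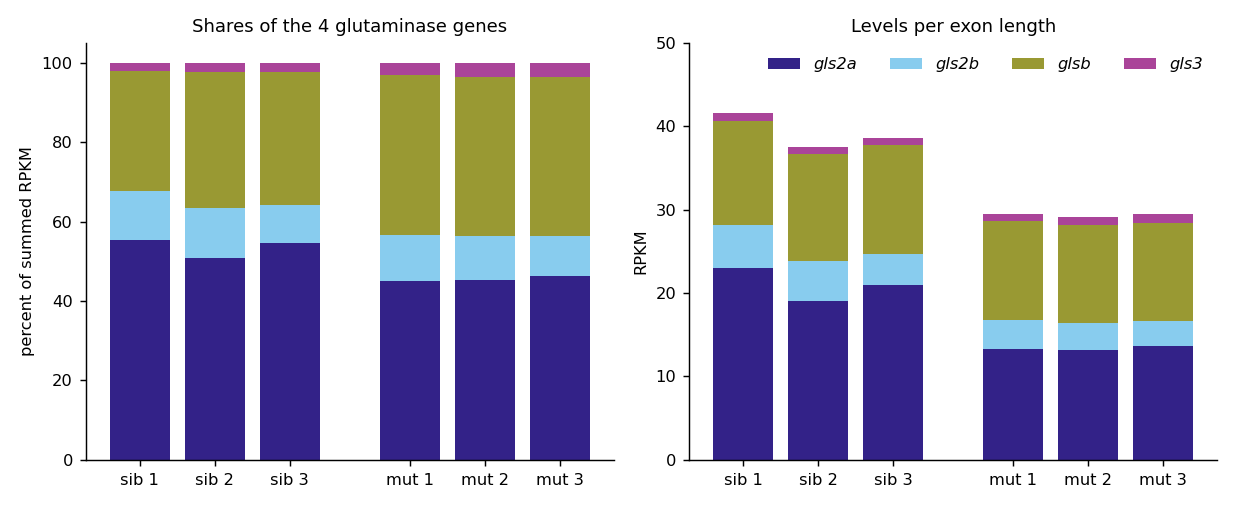
Stacked bars show the 4 glutaminase genes in each library, as percent of their summed RPKM (left) and as RPKM (right), with sibling pools (sib) and *fdx1b*-/- pools (mut) side by side. The summed bar is 37.5 to 41.6 RPKM high in siblings and 29.2 to 29.5 RPKM in mutants, and the *gls2a* segment is the part that shrinks most.

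Ratios of paralogs within a library cancel the scaling of the libraries, and 5 pairs were compared by exact two-sided permutation tests. Per exon length, *gls2a* was 25.7, 22.8 and 22.7 times the level of *gls3* in sibling pools 1, 2 and 3 and 14.6, 12.8 and 12.7 times in mutant pools 1, 2 and 3. The difference in the log2 ratio was -0.83 (SE 0.09). It was 1.84, 1.48 and 1.62 times the level of *glsb* in sibling pools 1, 2 and 3 and 1.12, 1.13 and 1.15 times in mutant pools 1, 2 and 3. The difference in the log2 ratio was -0.53 (SE 0.09). Neither ratio overlapped between the groups, and each reached the smallest possible *p* of 0.1 (0.25 after Benjamini-Hochberg adjustment over the 5 exact tests). Of these genes only *gls2a* stands in the study's list selected on *p*-value in these same samples. A separation of both ratios was therefore partly set in advance, and they add no support to the call of *gls2a*. The ratio of *gls2a* to *gls2b* did overlap. Per exon length it was 4.74 ± 0.84 in siblings and 4.17 ± 0.349 in mutants (SD, n = 3). The log2 difference was -0.17 (SE 0.16, exact permutation *p* = 0.5, adjusted 0.625). The ratio of *gls2b* to *glsb* differed by -0.36 on the log2 scale (SE 0.17, exact permutation *p* = 0.2, adjusted 0.3333), with overlap of sibling pool 3 and the mutants.

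**Figure D3:**
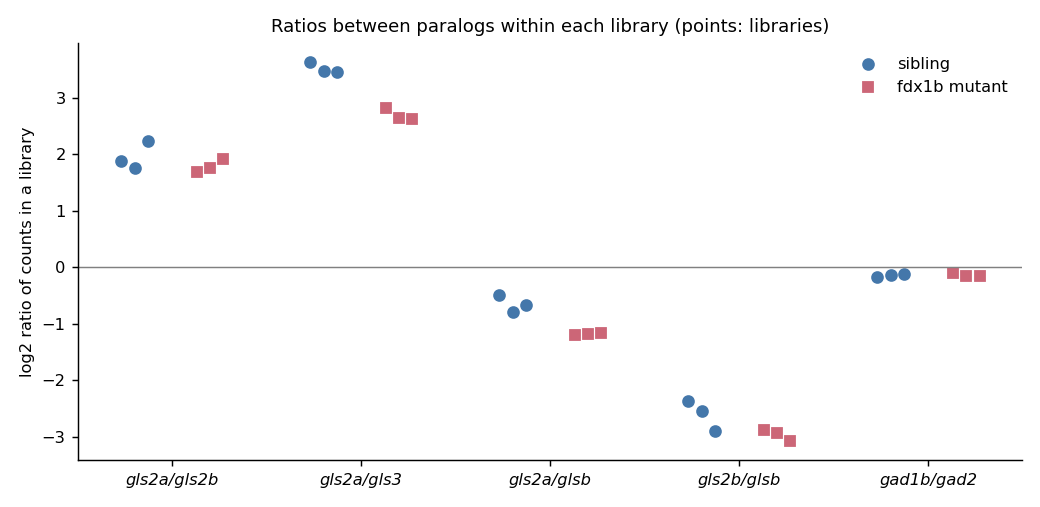
The log2 ratio of the counts of 2 paralogs is plotted for each library, with sibling pools as blue circles and *fdx1b*-/- pools as red squares. The ratios of *gls2a* to *gls3* and to *glsb* are lower in all 3 mutant pools, whereas *gls2a* to *gls2b* and *gad1b* to *gad2* overlap between the groups.

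The glutamate decarboxylase genes *gad1b* and *gad2*, which mark inhibitory neurons, were both somewhat lower in the mutant pools without passing the threshold. *gad1b* (ENSDARG00000027419) was at 183, 176 and 167 CPM in sibling pools 1, 2 and 3 and at 149, 148 and 160 CPM in mutant pools 1, 2 and 3. The *gad1b* difference was small (log2 fold change -0.21, SE 0.07, 95% interval -0.35 to -0.06, adjusted *p* = 0.1072, edgeR). *gad2* (ENSDARG00000015537) was at 206, 193 and 182 CPM in sibling pools 1, 2 and 3 and at 159, 164 and 178 CPM in mutant pools 1, 2 and 3. The *gad2* difference was of like size (log2 fold change -0.22, SE 0.07, 95% interval -0.37 to -0.06, adjusted *p* = 0.1254, edgeR). For each gene the groups were separate, with sibling pool 3 and mutant pool 3 nearest to each other. The ratio of the pair overlapped between the groups. Per exon length *gad1b* was 1.65 ± 0.031 times *gad2* in siblings and 1.66 ± 0.0408 times in mutants (SD, n = 3). The log2 difference was 0.01 (SE 0.03, exact permutation *p* = 0.7, adjusted 0.7). The log2 levels of the pair had a Pearson correlation of 0.984 over the 6 libraries, given as a description, and 0.964 after removal of the group means. A further copy, annotated as GAD1 (ENSDARG00000093411, listed as *gad1a*) and not among the 7, averaged 7.94 ± 1.14 CPM in siblings against 6.31 ± 0.606 CPM in mutants (log2 fold change -0.34, adjusted *p* = 0.1482, edgeR).

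Markers of neurons had lower values in the same libraries. The summed level of 24 pan-neuronal markers was 2300 to 2460 CPM in siblings and 2060 to 2290 CPM in mutants. Their median log2 fold change was -0.21 with 23 of 24 below 0, beside a median of -0.003 over all genes. None of the 24 was called by edgeR (13 were lower at an unadjusted *p* of at most 0.05, against 10.4% of all genes, and 3 were called lower by DESeq2, against 2.18%). Without sibling pool 3, edgeR called 2 of them lower. SNAP25, which serves synaptic vesicle release, was at a log2 fold change of -0.02. The sum of 15 markers of GABAergic neurons was 517 to 560 CPM in siblings and 458 to 504 CPM in mutants, with a median log2 fold change of -0.07. No gene of that list was called by edgeR (4 lower unadjusted, 2 called by DESeq2). The most abundant were *slc6a1b*, the GABA reuptake transporter (-0.30), and *pvalb7* (-0.002). As percent of the pan-neuronal sum, *gad1b* was at 7.3 ± 0.158 in siblings and 7.02 ± 0.199 in mutants, and *gad2* was at 8.06 ± 0.301 and 7.7 ± 0.078 (SD, n = 3). On the log2 scale these ratios differed by -0.06 (SE 0.03) and -0.07 (SE 0.03), against -0.21 and -0.22 for the genes themselves. The groups overlapped in the ratio of *gad1b* but not in that of *gad2*. In whole larvae, fewer cells of a type and less RNA per cell cannot be told apart.

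In wild-type larvae of this age, the study's in situ hybridization showed *gls2a* in the liver and *gls2b* in liver and intestine. There, *glsb* was seen mainly in the brain and swim bladder. Markers of the liver, the tissue for which the GLS2 type of enzyme is named, leaned the other way from *gls2a*, with 27 of 36 above 0 and a median log2 fold change of 0.17. Their sum was 14400 to 16300 CPM in siblings and 18100 to 18800 CPM in mutants. Of these markers edgeR called 9 higher and 2 lower, against 0.618% and 0.497% of all genes. *apoa1a*, a plasma lipoprotein gene, rose by 1.33 on the log2 scale, *bhmt* (betaine-homocysteine methyltransferase) by 0.78, *apom* by 0.61 and *ambp* by 0.56. The remaining calls were *c3a.1* (0.47), *c9* (0.46), *vtnb* (0.44), *gc* (0.41) and *f2* (0.40). The haem-binding gene *hpx* fell by 2.15 and *ahsg1* by 0.60. The most abundant, *apobb.1* and *apoa1b*, were at log2 fold changes of 0.10 and 0.17. At an unadjusted *p* of at most 0.05 in edgeR, 19 liver markers were higher and 5 lower, against 9.21% and 10.4% of all genes. DESeq2 called 14 higher and 3 lower, against 2.15% and 2.18%. The counts called by edgeR depended on single pools. In all, 3 or 4 liver markers were called higher when any mutant pool or sibling pool 1 was left out, and 13 without sibling pool 2. No more than 1 was called lower when any pool but sibling pool 2 was left out. As percent of the liver sum, *gls2a* was at 0.254 ± 0.0228 in siblings and 0.134 ± 0.00389 in mutants (SD, n = 3), a log2 difference of -0.92 (SE 0.08). *gls2b* was at 0.0663 ± 0.0137 and 0.0388 ± 0.00216, a log2 difference of -0.75 (SE 0.19), with no overlap for either.

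**Figure D4:**
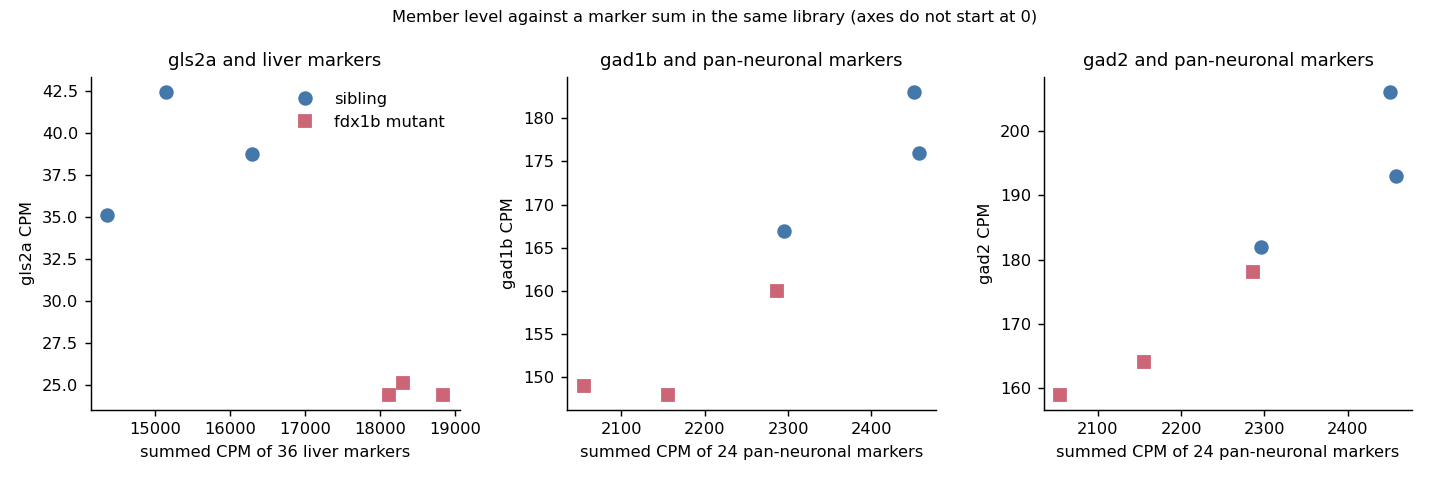
Each point is a library, with the summed CPM of a marker list on the x axis and the CPM of a gene on the y axis, and the axes do not start at 0. Blue circles are sibling pools and red squares *fdx1b*-/- pools. Mutant pools have a higher liver sum (18100 to 18800 CPM) with less *gls2a*, and a lower pan-neuronal sum (2060 to 2290 CPM) with less *gad1b* and *gad2*.

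*aldh4a1* (ENSDARG00000038207), whose enzyme forms glutamate from a proline intermediate, was the only member higher in every mutant pool. It was at 94, 88 and 90.4 CPM in sibling pools 1, 2 and 3 and at 105, 111 and 105 CPM in mutant pools 1, 2 and 3. The log2 fold change was 0.24 (SE 0.05, 95% interval 0.12 to 0.35, adjusted *p* = 0.03335, edgeR), short of the threshold in both size and *p*, and 12.9% of all genes had the mutant pools above the sibling pools. Without a limit on the fold change, at an adjusted *p* of at most 0.05, *aldh4a1* was called higher, as were 1.94% of all genes. That looser call was lost in edgeR without any mutant pool or sibling pool 1 (adjusted *p* of 0.0936 to 0.175). It was also lost with the replicate number as a block (0.0833). DESeq2 gave 0.24 (adjusted *p* = 0.00483), short of the threshold in size alone. As percent of the liver sum *aldh4a1* was at 0.596 ± 0.0362 in siblings and 0.581 ± 0.0261 in mutants (SD, n = 3), with overlap and a log2 difference of -0.03 (SE 0.06). At the full threshold no member was called higher in edgeR or DESeq2. At an unadjusted *p* of at most 0.05, 1 of the 7 genes, *aldh4a1*, was higher, as were 9.21% of all genes, and 5 of the 7 were lower, as were 10.4% of all genes. However, *gls2a*, *gls2b*, *gad1b*, *gad2* and *aldh4a1* stand in a gene list of the study selected on *p*-value in these same samples. The 7 are not an unselected set, so these counts do not test them against all genes.

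**Figure D5:**
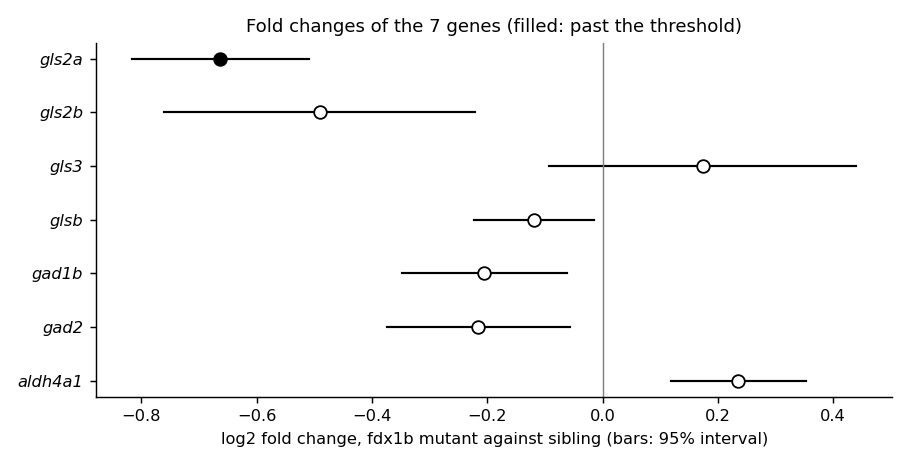
Points show the log2 fold change of each gene in *fdx1b*-/- larvae against siblings, with bars for the 95% interval and a filled point for a gene past the threshold. Only *gls2a* at -0.66 is filled, and the interval of *gls3* alone spans 0.

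Around the glutaminases, the genes listed for glutamine and glutamate metabolism and nearby reactions mostly did not pass the threshold. The exceptions were in transamination, nucleotide synthesis and the citric acid cycle. Of 6 tested genes for glutamine synthesis and glutamate oxidation none was called in edgeR (1 higher and 1 lower unadjusted, none in DESeq2), with a median log2 fold change of -0.07. The genes annotated as GLUL, glutamine synthetases, were at -0.15 (ENSDARG00000099776) and -0.11 (ENSDARG00000100003), and *glud1b*, a glutamate dehydrogenase, was at 0.11. Among 18 aminotransferase genes edgeR called 2 lower and none higher (median -0.08), against 0.497% and 0.618% of all genes. At an unadjusted *p* of at most 0.05 in edgeR, 3 were higher and 3 lower. DESeq2 called 1 higher and 3 lower. *agxtb*, which transfers an amino group from alanine to glyoxylate, was at 258, 236 and 235 CPM in sibling pools 1, 2 and 3 and at 131, 134 and 152 CPM in mutant pools 1, 2 and 3. *agxtb* fell by 0.81 on the log2 scale (SE 0.08, adjusted *p* = 0.0002059, edgeR), and stayed called with any pool left out (adjusted *p* at most 0.00322). *oat*, ornithine aminotransferase, averaged 29.3 ± 1.38 CPM in siblings against 20.1 ± 0.978 CPM in mutants (SD, n = 3), with no overlap, and fell by 0.54 (SE 0.07, adjusted *p* = 0.001013, edgeR). The *oat* call was lost without mutant pool 2, mutant pool 3 or sibling pool 1, with adjusted *p*-values of 0.0112 to 0.0135. GOT1, an aspartate aminotransferase gene and the most abundant of the list, was at a log2 fold change of 0.04.

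*oat* also stood in the list of proline and ornithine routes to glutamate, to which *aldh4a1* belongs by function. It was the only call among 7 genes there (median -0.04), with *pycr1b* at a log2 fold change of -0.04 and *prodha*, whose product precedes that of *aldh4a1* in proline breakdown, at -0.16 (adjusted *p* = 0.2241, edgeR). Over all genes, edgeR called 0.497% lower and 0.618% higher, and 10.4% were lower and 9.21% higher at an unadjusted *p* of at most 0.05. In this list 1 gene was higher and 3 were lower unadjusted, and DESeq2 called 1 lower. Of 10 amidotransferase genes, which use the amide of glutamine, only *ppat* was called (median 0.03). Unadjusted, 2 of them were higher and none lower, and DESeq2 called 1 higher. *ppat*, which starts purine synthesis, was at 19.7, 17.4 and 22.2 CPM in sibling pools 1, 2 and 3 and at 30.8, 30.6 and 29.8 CPM in mutant pools 1, 2 and 3. It rose by 0.61 on the log2 scale (SE 0.08, adjusted *p* = 0.001767, edgeR). That call was lost without any mutant pool or without sibling pool 1, with adjusted *p*-values of 0.0141 to 0.0186. CAD and CTPS1, which start pyrimidine synthesis and make CTP, were at -0.10 and -0.06. In the 25 genes for the 2-oxoglutarate and succinate steps of the citric acid cycle the only call was *ogdhb*, a subunit of 2-oxoglutarate dehydrogenase. It fell by 0.34 (SE 0.06, adjusted *p* = 0.009818, edgeR) and lost the call in 11 of 15 alternative fits. Unadjusted, 4 genes of the list were higher and 3 lower, and DESeq2 called 1 lower. *idh2* and MDH1 (ENSDARG00000017772) were at 0.01 and -0.03.

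In the list for the GABA shunt and GABA transport, 7 of 9 genes had log2 fold changes below 0 (median -0.23). This list includes the GAD1 copy given above, and it shares genes with the GABAergic markers, *slc6a1b* and *slc32a1* among them. None was called by edgeR (7 were lower at an unadjusted *p* of at most 0.05, against 10.4% of all genes, and 2 were called lower by DESeq2, against 2.18%), and 1 was called lower without sibling pool 3. *abat*, GABA transaminase, was at -0.16 and *slc6a1b* at -0.30 (adjusted *p* = 0.05806). The vesicular transporter *slc32a1*, chosen after its value was seen, averaged 49.8 ± 3.35 CPM in siblings against 40.6 ± 3.14 CPM in mutants (log2 fold change -0.29, adjusted *p* = 0.04152, edgeR). Receptors of glutamate and GABA leaned the same way, with 47 of 48 below 0 and a median of -0.23. No receptor was called in edgeR with all pools, 1 was called lower without sibling pool 2 and 6 without sibling pool 3, and DESeq2 called 6. At an unadjusted *p* of at most 0.05, 32 were lower against 10.4% of all genes, and 10 were lower at an adjusted *p* of at most 0.05 against 1.95% of all genes. The most abundant receptor genes, GRIN1 (ENSDARG00000025728) and *grin1a*, subunits of the NMDA receptor, were at -0.17 and -0.23. Of 37 transporters of glutamine and glutamate none was called by edgeR (4 higher and 14 lower unadjusted, 2 in each direction by DESeq2), and their median was -0.14. The most abundant were *slc38a5b* at -0.15 and *slc7a8a* at 0.23.

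Markers of other tissues were set beside these values. Over all genes, edgeR called 0.497% lower and 0.618% higher, and DESeq2 called 2.18% and 2.15%. At an unadjusted *p* of at most 0.05 in edgeR, 10.4% were lower and 9.21% higher. Exocrine pancreas markers summed to 15900 to 18200 CPM in siblings and 13200 to 15400 CPM in mutants. Of these 17 of 18 were below 0 (median -0.22, none called by edgeR, 9 lower unadjusted, 7 called by DESeq2, and 4 called lower by edgeR without sibling pool 2), with *try* at -0.20 and *prss59.2* at -0.14. Intestinal markers overlapped, at 5340 to 6160 and 5220 to 5620 CPM. Of 22 genes none was called by edgeR (3 higher and 2 lower unadjusted, 1 called higher by DESeq2), and *chia.2* was at -0.22 and *apoa4b.2* at -0.11. Against the intestinal sum, *gls2b* was at 0.177 ± 0.0376% in siblings and 0.132 ± 0.0114% in mutants, and the pools overlapped. Fast muscle markers summed to 35600 to 39400 CPM in siblings and 42100 to 44400 CPM in mutants. All 17 were above 0, with *tnnt3a* called higher (0.73), and *actc1b* and *pvalb1* at 0.07 and 0.24. Of these muscle markers 13 were higher at an unadjusted *p* of at most 0.05, 6 were called higher by DESeq2, and edgeR called 3 without sibling pool 2. Markers of glia (10 genes, median -0.13), glutamatergic neurons (11 genes, median -0.06; SLC17A6 -0.23, NEUROD1 0.01) and swim bladder (3 genes, median 0.14; *anxa5b* 0.20, *sftpbb* 0.14) held no call by edgeR. At an unadjusted *p* of at most 0.05, 3 glial and 4 glutamatergic markers were lower and 1 swim bladder marker was higher, and DESeq2 called 1 glial marker. In the transporter, GABAergic, glial and intestinal lists, edgeR called no more than 1 gene in each direction when any pool was left out. The part that tissue make-up plays in the values of the 7 genes was not tested.

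The genes most alike to each member in log2 CPM over the 6 libraries were sought among 19897 named genes, as a description in which the difference between the groups takes part. *gls2a* was closest to *ampd1*, an AMP deaminase gene best known from muscle (Pearson r = 0.9993), then to *xkr8.2* (0.9941) and *si:dkey-247k7.2* (0.9933). *ampd1* was also called lower in mutants (log2 fold change -0.60, adjusted *p* = 0.00147, edgeR). *gls2b* was closest to *si:dkey-6n6.1* (0.9959), *bokb* (0.9906) and IBTK (0.9904). Members were left out of the search, and the correlation of *gls2a* with *gls2b* was 0.842, or 0.183 after removal of the group means. *glsb* was closest to *mych* (0.9964), a Myc family transcription factor gene, MAP7D1 (0.9961) and NOP14 (0.996), and *gls3* to TADA3 (0.9923), GTF2E2 (0.9897) and TMEM51 (0.9889). The nearest to *gad1b* were *BX324123.2* (0.9963), *pcsk1*, a prohormone convertase gene (0.9957), and *slco5a1b* (0.9912). Those nearest to *gad2* were OTP, a homeobox gene of hypothalamic neurons (0.9952), *mapk8ip2* (0.993) and the synaptotagmin gene *syt1a* (0.9919). For *aldh4a1* they were INTS12 (0.9995), TRIM44 (0.9992) and PI15 (0.9982).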

How the data were processed

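Total RNA of 6 pools of whole larvae was depleted of ribosomal RNA and sequenced in single-end, strand-marked reads 50 bases long. With STAR, the authors mapped them to genome build GRCz10 and counted uniquely mapped reads per Ensembl locus, and the deposited values are raw exon counts with no normalization (the processing notes name STAR 2.4.0i, the paper another version). Whether counting used the strand is not given in the sources used here.

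Counts were scaled by TMM, filtered with filterByExpr (26544 of 31388 genes kept) and tested with the quasi-likelihood test of edgeR 4.0.16 (limma 3.58.1, R 4.3.3), a method tested on simulated data, where 60 of 67 genes changed by 2 on the log2 scale and 41 of 66 changed by 0.6 were called, as were 10 unchanged genes. DESeq2 1.42.0 was an alternative, as were other scalings, filters and samples. Levels per exon length used the exon lengths in the file. Ratios and shares were tested by exact permutation (Python 3.11.15), with a prior count of 0.5 in ratios. Totals of 18247332 to 49908095 counts set the precision, and *p*-values measure the spread between these pools, which may share parents.

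The 7 genes and all gene lists were chosen with earlier results of these data known. Named were the 7 genes, every listed gene past the threshold, the 2 most abundant genes of each list and the 3 genes most alike to each member. *fdx1b*, *gad1a* and *slc32a1* were added outside that rule, after values were seen, and some listed genes are not reported here. Gene names came from a table of Ensembl symbols that matched 25925 identifiers (capitals mark names given from a human ortholog, which paralogs can share), and from the study's supplementary lists.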

Additional observations from a re-analysis of the deposited data

How the results depend on the processing

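Of 105 alternative fits of the 7 genes, 103 left direction and call as they were, and both exceptions concern *gls2b*: -0.486 with the Wald test of DESeq2 (adjusted *p* = 0.00989) and a call without sibling pool 3. The count of members called lower was accordingly 2 with the Wald test of DESeq2 and 1 to 2 when a pool was left out, and the count called higher was 1 at an adjusted *p* of at most 0.05 with no limit on the fold change. Leaving out a pool gave log2 fold changes of -0.721 to -0.589 for *gls2a*, -0.623 to -0.361 for *gls2b*, and -0.01 to 0.022 for the difference in the ratio of *gad1b* to *gad2*, whose sign was not fixed. The difference in the share of *gls2a* and *gls2b* was -9.42 to -7.23 percentage points over pools left out and -8.45 without scaling to length.

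Over all genes, 132 were called lower and 164 higher by edgeR, 445 and 440 by DESeq2, 235 and 259 without sibling pool 2, 342 and 280 without sibling pool 3, and 59 to 60 and 49 to 61 without any other pool. With a replicate block 107 and 95 were called, *gls2a* among them, and *gls2b* was at -0.478 (adjusted *p* = 0.0456). Same-numbered pools did not deviate together (Pearson r of -0.141, -0.14 and 0.0907), so the numbers were not taken as pairs. Paired by number, the share differed by -8.58 percentage points with an exact sign-flip *p* of 0.25, the smallest that 3 pairs allow.

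Genes at log2 fold changes near 0 changed sign: MDH1 (ENSDARG00000017772) over -0.066 to 0.032, *idh2* -0.001 to 0.047, SNAP25 (ENSDARG00000020609) -0.055 to 0.001, *pvalb7* -0.014 to 0.031 and NEUROD1 -0.026 to 0.046 when a pool was left out. *pvalb7* was also at 0.006 with upper-quartile factors, 0.004 with TMM without the 20 most abundant genes, 0.005 with no filter, 0.002 with DESeq2 and 0.048 after thinning to the smallest library, where NEUROD1 was at -0.003. The causes of these shifts were not tested.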
